A study of Drosophila melanogaster with 3 samples.

Results

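Of the 6626 peaks in the thresholded list of a Coop ChIP-seq experiment, 1316 (19.9%) had their summit at a unidirectional first promoter. A summit is the position of highest signal within a peak. It was counted here when its nearest protein-coding transcription start site (TSS) lay within 500 bp, when no TSS of another protein-coding gene on the opposite strand lay within 1000 bp upstream of that TSS, and when that TSS was less than 1000 bp from the 5'-most TSS of its gene. The rule used positions only and no signal values. The 1316 summits made up 49.0% of the 2683 summits at any protein-coding promoter and lay at 1238 genes. The other promoter summits were 866 at divergent promoters, where an opposite-strand TSS lies within 1000 bp upstream, and 501 at internal promoters, which start 1000 bp or more from the first TSS of the gene. A further 3943 summits lay at no promoter.

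The chromatin came from whole Drosophila melanogaster prepupae of mixed sex, aged 24 h, of 1 transgenic line that stably expresses Coop (CG1621) with GFP fused to its C-terminus. There were 3 biological replicates of this 1 group, no second condition, and 1 control alignment shared by all 3 libraries. Per the labels, sonication cut the chromatin into pieces of 200 to 800 bp. Whole animals mix many cell types, so a site used in few cells and a site used weakly in many cannot be told apart. The labels disagree on what the libraries are. A free-text line calls them input controls, but the assay name, antibody entry and deposited notes treat them as immunoprecipitates with a control of their own, and every value here rests on that second reading. The files used hold no read counts, and sequencing depth is unknown.

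Coop, a corepressor protein, is known to bind Pangolin, the TCF factor through which Wingless signalling controls its target genes, and it carries a MADF and a BESS domain. A unidirectional promoter starts transcription of 1 protein-coding gene, with the region upstream free of a coding neighbour that points the other way. Fly promoters are known to fall into broad kinds: housekeeping promoters that hold the DNA replication-related element (DRE) or Ohler motif 1, and regulated promoters that hold a TATA box, an initiator (Inr), a downstream promoter element (DPE) or GAGA sites, while ribosomal protein genes start within a pyrimidine-rich TCT initiator.

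The DNA under 6 of the 7 strongest of these summits, all but Coop itself, is shown first because they set the upper end of the signal range. Each stretch runs from 60 bases before the summit to 60 after it and is read 5' to 3' on the strand of the gene, from the RefSeq release 6 genome (dm6). Capitals mark motif 1 (GGTCACACT), a site 1 base off it, or the E-box CAGCTG. The stretch of Cks30A is chr2L:9330644-9330764 (plus strand), that of CG14100 is chr3L:19590558-19590678 (minus strand) and that of AIF is chr2L:2151664-2151784 (plus strand). The stretch of CG4238 is chr2L:2009764-2009884 (plus strand), that of Tasp1 is chr3L:16087449-16087569 (minus strand) and that of Oatp30B is chr2L:9520919-9521039 (plus strand).
Cks30A: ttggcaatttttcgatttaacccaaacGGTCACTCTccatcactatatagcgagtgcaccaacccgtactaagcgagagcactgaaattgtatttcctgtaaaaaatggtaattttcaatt
CG14100: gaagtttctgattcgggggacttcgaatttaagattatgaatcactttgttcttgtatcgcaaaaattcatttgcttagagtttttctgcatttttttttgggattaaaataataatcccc
AIF: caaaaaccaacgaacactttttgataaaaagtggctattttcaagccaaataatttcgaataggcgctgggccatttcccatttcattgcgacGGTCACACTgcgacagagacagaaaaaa
CG4238: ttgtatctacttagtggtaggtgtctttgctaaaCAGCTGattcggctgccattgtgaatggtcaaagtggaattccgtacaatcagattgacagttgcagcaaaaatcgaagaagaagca
Tasp1: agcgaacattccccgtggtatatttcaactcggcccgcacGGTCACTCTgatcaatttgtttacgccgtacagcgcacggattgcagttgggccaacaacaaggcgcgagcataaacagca
Oatp30B: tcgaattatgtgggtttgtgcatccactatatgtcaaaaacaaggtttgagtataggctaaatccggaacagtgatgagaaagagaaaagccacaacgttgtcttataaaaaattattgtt

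Base composition varied widely among these 6 stretches, with a GC content of 31.4% at CG14100 and 52.9% at Tasp1. The site in capitals at Cks30A and at Tasp1 differed from motif 1 by the substitution A7T, counted from 1 at the 5' end of the motif, with the base of the motif first and that of the site last. AIF held motif 1 itself, starting 33 bases downstream of the summit, and Cks30A held it 71 bases downstream, outside the printed stretch. Neither CG14100 nor Oatp30B held a site in capitals.

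The next stretches show what a match to each of 5 other motifs looks like. For each motif the strongest summit with a match in the printed bases was taken, among the arms whose sequence is given here, and capitals mark that match. The DRE is spelled TATCGATA and is shown at p24-1, chrX:11852421-11852541 (minus strand). The repeat GAGAGA is shown at the catalase gene Cat, chr3L:18822854-18822974 (plus strand). Motif 6, spelled GTATTTT, is shown at dre4, chr3L:1876267-1876387 (minus strand). Motif 7 is only a label here for the letters GGCANCG, with N for any base, and not the motif numbered 7 by Ohler. It is shown at bel, chr3R:8660427-8660547 (minus strand). The TCF site, spelled CTTTGAT, is shown at CG13921, chr3L:1746723-1746843 (plus strand).
p24-1: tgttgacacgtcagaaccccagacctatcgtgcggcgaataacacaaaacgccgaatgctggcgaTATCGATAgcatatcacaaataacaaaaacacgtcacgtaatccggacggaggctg
Cat: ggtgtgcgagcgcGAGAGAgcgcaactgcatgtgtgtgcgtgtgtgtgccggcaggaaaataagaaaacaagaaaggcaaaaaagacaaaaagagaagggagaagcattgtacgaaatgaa
dre4: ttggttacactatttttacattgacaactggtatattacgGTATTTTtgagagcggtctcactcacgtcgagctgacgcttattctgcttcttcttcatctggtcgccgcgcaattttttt
bel: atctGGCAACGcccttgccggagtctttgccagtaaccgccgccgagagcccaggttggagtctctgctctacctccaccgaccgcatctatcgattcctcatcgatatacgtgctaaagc
CG13921: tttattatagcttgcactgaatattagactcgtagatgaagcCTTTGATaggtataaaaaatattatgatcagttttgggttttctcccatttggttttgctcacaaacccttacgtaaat

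A match is a run of letters and not a bound site. The dre4 stretch also held sites 1 base off motif 1, with the substitutions C4T and A5T. The bel stretch held the run GCCGCC, the letters searched here as the Helper site that accompanies some TCF sites.

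Each peak carries a signal, a score that the authors' peak caller gave, and since its scale differs between lists, signals were compared within a list only. Among the 1316 summits the signal ran from 171 to 8603, with a median of 291 and quartiles of 220 and 476. Most lay near the lower end, and 94 exceeded 1000. The 26 that stood among the 100 strongest peaks made up 26% of them, whereas the 494 that ranked from 4001 to 6626 made up 18.8% of that range. Their median position was −112.5 bp among the 100 strongest peaks, −117.5 bp at ranks to 500 and −130.5 bp at ranks to 1000. Below that it lay closer to the TSS, at −54, −28.5 and −9.5 bp in the ranges that end at ranks 2000, 4000 and 6626.

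The strongest summit of the list belonged to Cks30A, which encodes a small subunit that binds cyclin-dependent kinases. Its signal was 8603 in the thresholded list, and 3124, 2503 and 3025 in the lists of replicates 1, 2 and 3, rank 1 in each. The summit lay at −59 bp from its 5'-most TSS. CG14100 had signals of 1476, 1896 and 1431 in the 3 replicates (ranks 8, 3 and 9), with its summit at −94 bp. AIF, which encodes the mitochondrial apoptosis-inducing factor, had 1292, 1552 and 1787 (ranks 11, 11 and 4), at −30 bp. These 3 genes kept a rank of 11 or better in every replicate.

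CG4238 had signals of 1549, 1343 and 1562 in the 3 replicates, at −35 bp. Tasp1, which encodes the protease that cleaves Trithorax, had 842, 1199 and 1223, and its summit lay 16 bp downstream of the TSS in the untranslated first exon. Oatp30B, an organic anion transporter gene, had 1060, 1078 and 1033, at −231 bp. Replicate 1 gave the lowest of the 3 values at Tasp1 and the 3 replicates lay close together at Oatp30B. Coop itself came next after CG4238 by thresholded signal, with 1284, 1007 and 1351 in the replicates and its summit at −111 bp. The line carries a Coop transgene, and signal from the transgene and signal from the native gene cannot be told apart.

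The rest of the 20 strongest genes were l(2)k09022, dre4 (the FACT subunit Spt16), CG13921, CG18549, Cat (catalase), Trp1 (a Sec62 protein of the translocon), Hsp27 (a small heat shock protein), ssp3, bel (a DEAD-box RNA helicase), Tina-1, eIF6 (which keeps ribosomal subunits apart), CG32772 and Sesn (Sestrin, an inhibitor of TOR signalling). Their signals ran from 3053 at l(2)k09022 down to 2065 at Sesn. All of the 20 were found in all 3 replicates, as were all of the 100 strongest peaks of the thresholded list, of any class. Ranks varied more between replicates among the rest of the 20 genes than among the strongest 3. Tina-1 had a signal of 350 in replicate 1 (rank outside the strongest 200), against 1109 and 874 in replicates 2 and 3 (ranks 34 and 34). The bel summit had 1278 in replicate 1 (rank 13), against 589 and 618 in replicates 2 and 3 (ranks 217 and 82).

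Replicates were compared through the 6626 regions of highest signal in each, so that every list had the same length. A thresholded summit counted as found in a replicate where that list had a summit within 100 bp of it. Of the 1316 summits, 656 (49.8%) were found in all 3 replicates, against 48% of all thresholded peaks (3178 of 6626). The share was 43.1% at divergent promoters, 52.9% at internal promoters and 47.8% at no promoter. The 3 lists also made the thresholded list, so this overlap is a description and the share lies near that of all peaks. Of the rest, 426 were found in 2 replicates, 212 in 1 and 22 in none. Within the complete relaxed lists of 30000 regions, 1014 (77.1%) were found in every replicate.

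Replicate 1 stood apart from the others at promoters. It placed 1570 summits at unidirectional first promoters, against 1212 in replicate 2 and 1251 in replicate 3, or 23.7%, 18.3% and 18.9% of each list (20.3% ± 2.96, SD, n = 3). Its promoter summits also lay closer to the TSS. A total of 65.7% of them lay within 100 bp, against 43.1% in replicate 2 and 42.4% in replicate 3. The cause was not tested.

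With 3 replicates, the exact two-sided sign-flip permutation test over replicate differences cannot give a p below 0.25, so no difference below can pass a threshold of 0.05. Differences between classes are therefore described by their size and by the number of replicates that share their direction.

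Among 9236 genes with a unidirectional first promoter, 1238 held a summit there in the thresholded list (13.4%). The share was 16.2%, 12.46% and 12.39% in replicates 1, 2 and 3. Of 5052 genes with a divergent promoter, 16.5% held one in the thresholded list, and 21.8%, 17.2% and 13.3% in the replicates. Of 1636 genes with an internal promoter, 24.6% held one, and 25.2%, 23.4% and 23.9% in the replicates. A gene counted where any of its starts of that kind had a summit, so genes with more such starts had more chances. Each summit went to its nearest TSS only, so a summit at a divergent pair counted for 1 gene. The unidirectional first share was lower than the divergent share in 3 of 3 replicates (mean difference −3.75 percentage points ± 2.52, SD, n = 3, exact sign-flip p = 0.25). It was lower than the internal share in 3 of 3 replicates as well (−10.5 percentage points ± 1.30, SD, n = 3, exact sign-flip p = 0.25).

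**Figure D1:**
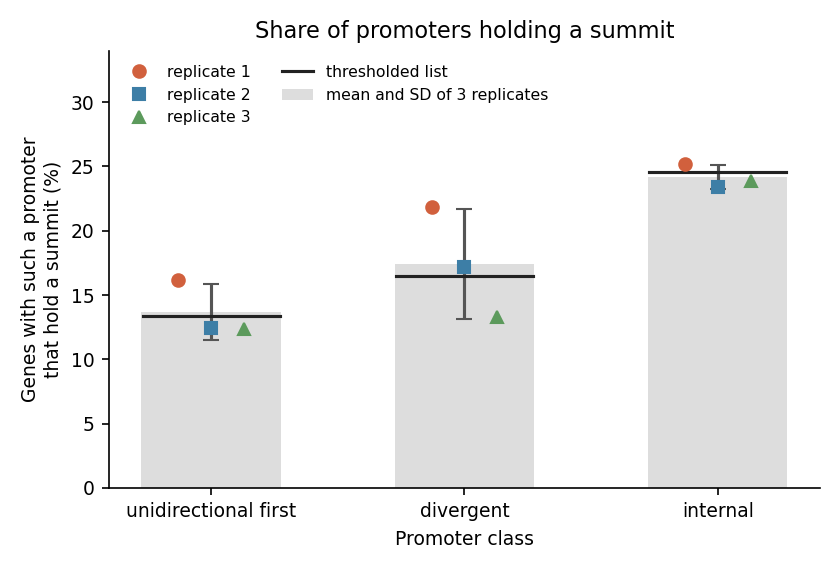
Share of genes with each kind of promoter (percent, y axis) that held a summit there, for unidirectional first, divergent and internal promoters. Bars show the mean of 3 replicates with SD, symbols each replicate and the black line the thresholded list; unidirectional first promoters were at 12.4% to 16.2%, below the internal promoters at 23.4% to 25.2%.

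The signal of these summits differed little from that of other summits within a list. Their median signal percentile, where 100 is the strongest peak, was 53.7, 50.7 and 55.1 in replicates 1, 2 and 3. Summits at divergent promoters had 50.1, 49.1 and 57.4, so the direction differed between replicates. Summits at no promoter had 47.7, 50 and 47.1, lower in 3 of 3 replicates (mean difference 4.88 percentile points ± 3.78, SD, n = 3, exact sign-flip p = 0.25). Summits at internal promoters had 52.6, 50.5 and 52.0 in the replicates, a difference of 1.45 ± 1.45 (SD, n = 3, exact sign-flip p = 0.25). In the thresholded list the direction was the other way, with 51.1 at unidirectional first and 53.2 at internal promoters, and the difference was −4.04 over the replicates when only the upper 50% of each list was used.

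The summits gathered about the start site, with more of them upstream than downstream. Their median position was −34 bp in the thresholded list, with 820 upstream, 3 at the TSS base and 493 downstream. The median was −34, −56.5 and −38 bp in replicates 1, 2 and 3. Measured from the first TSS of the gene, the lean upstream was weaker. The median was then −16 bp in the thresholded list, with 54.7% upstream, and −20, −25 and −6 bp in the replicates. A total of 50.8% lay within 100 bp of the TSS, against 62.6% at divergent and 32.5% at internal promoters. In replicates 1, 2 and 3 the share was 82.0%, 57.9% and 53.8% at divergent promoters and 43.1%, 24.5% and 32.5% at internal promoters, beside 65.7%, 43.1% and 42.4% at unidirectional first promoters. The nearest-TSS assignment limits how far upstream a divergent summit can lie, because beyond the midpoint it belongs to the partner gene. The order of the 3 classes held in each replicate, and the difference from internal promoters was 17.0 percentage points ± 6.46 (SD, n = 3, exact sign-flip p = 0.25).

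**Figure D2:**
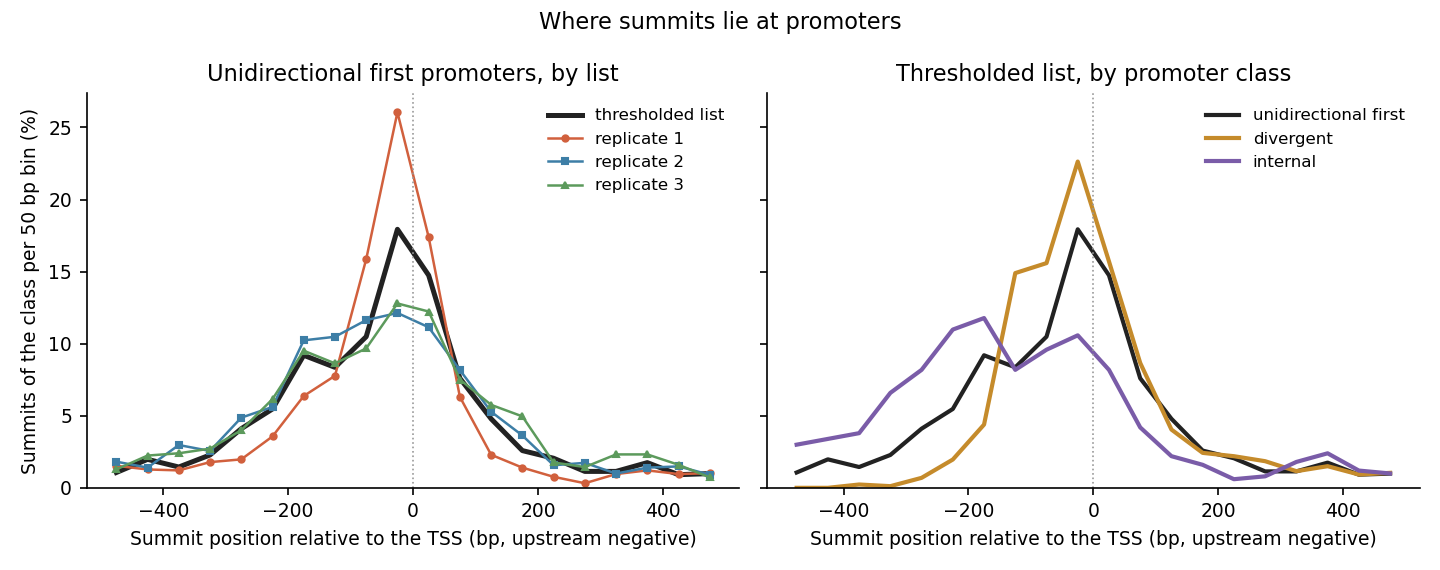
Percent of summits per 50 bp bin (y axis) against the position relative to the TSS (x axis, bp, upstream negative). The left panel shows unidirectional first promoters in the thresholded list and each replicate, with replicate 1 the sharpest; the right panel compares the 3 promoter classes in the thresholded list, where the internal promoters have their mode further upstream than the other two.

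Summits further upstream had higher median signals and were found in all 3 replicates more often than those downstream. The 446 summits more than 100 bp upstream had a median signal of 343, and 54.3% of them were found in all 3 replicates. The 374 at 1 to 100 bp upstream had a median of 284, with 53.7% found. The 295 from the TSS to 100 bp downstream had 259 and 46.4%, and those more than 100 bp downstream had 270 and 37.8%. The replicate lists also made the thresholded list, so this is a description.

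By annotation, 633 summits (48.1%) were intergenic and 433 (32.9%) fell in an untranslated exon of the gene itself. An intron of the gene held 105, a coding exon held 58, and 87 lay inside another protein-coding gene. Intergenic summits had a median signal of 308, and those in introns or inside another gene had 316 and 316. The median was 269 in untranslated exons and 252 in coding exons. A total of 1131 summits (85.9%) lay nearest to the 5'-most TSS itself. A pair of genes shared an equal distance at 26 summits, and those were given to 1 gene by position.

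Most genes had a single summit at such a promoter. Of the 1238 genes, 1162 had 1 summit, 74 had 2 and 2 had 3. PCB, which encodes pyruvate carboxylase, had its 3 at −254, 321 and −423 bp from the nearest start, with signals of 276, 218 and 182. Bacc had its 3 at −429, −224 and −57 bp, with signals of 928, 532 and 339. None of the 3 PCB summits was found in every replicate, whereas the 2 upstream summits of Bacc were. Those 2 shared 1 peak interval, so they are not separate regions.

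Summits lay close to each edge of the rule. The summit of tay, 497 bp downstream of its TSS (signal 1041), was just inside the window, and that of nw at −501 bp (signal 390) just outside. CG1910 had its nearest opposite TSS at 1001 bp (signal 467) and was kept, whereas hts had one at 999 bp (signal 183) and counted as divergent. Not1 lay 997 bp from its first TSS (signal 255) and was kept, whereas ERR lay 1001 bp away (signal 267) and counted as internal.

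The rule looked at coding neighbours only. At 83 of the summits (6.31%) an opposite-strand noncoding TSS lay within 1000 bp upstream. Of the 444 genes with such a noncoding start, 82 held a summit (18.5%), against 1156 of the 8792 others (13.1%).

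Motifs known from fly promoters were then searched on both strands from 100 bp before to 100 bp after each summit. The DRE, motif 1, motif 6, the E-box and TATA were rarer at unidirectional first than at divergent promoters in 3 of 3 replicates, and GAGA and motif 7 were more frequent. The DRE, bound by Dref, occurred at 4.10% of these summits, against 8.66% at divergent, 0.80% at internal and 0.33% at no promoter. In replicates 1, 2 and 3 it occurred at 7.26%, 3.96% and 2.72%, against 11.6%, 8.44% and 5.34% at divergent promoters. Motif 1, which M1BP recognises, occurred at 3.72%, against 5.77%, 0.40% and 0.28% at divergent, internal and no promoter. Both motifs were below the divergent and above the internal and non-promoter shares in 3 of 3 replicates (exact sign-flip p = 0.25 for each).

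GAGA, the repeat bound by the GAGA factor Trl, occurred at 15.6% of these summits. It occurred at 7.74% at divergent, 26.1% at internal and 14.2% at no promoter. In the replicates the share was 15.7%, 14.8% and 16.3%, against 7.604%, 5.40% and 7.72% at divergent promoters, a mean difference of 8.69 percentage points ± 0.63 (SD, n = 3, exact sign-flip p = 0.25). Against summits at no promoter its direction differed between replicates. All promoters of the annotation, divergent ones included, held GAGA at 14.6%, the DRE at 7.97% and motif 1 at 5.21%. Unidirectional first promoters alone held them at 14.9%, 5.51% and 3.59%. Both counts used windows from 250 bp before to 50 bp after the TSS, longer than those at the summits.

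Motif 7 occurred at 11.9% of these summits, against 10.4% at divergent and 7.203% at no promoter, higher than both in 3 of 3 replicates. The E-box occurred at 12.4%, against 14.4% at divergent and 7.13% at no promoter, below the first and above the second in 3 of 3 replicates. Motif 6 occurred at 9.35%, against 13.5% at divergent promoters, lower in 3 of 3 replicates, and 9.43% at no promoter, with mixed directions. TATA, of the regulated kind, occurred at 20.8%, against 28.3% at divergent and 26.96% at no promoter, lower than both in 3 of 3 replicates (mean differences −6.65 percentage points ± 2.94 and −5.69 ± 3.58, SD, n = 3). The Su(Hw) core TGCATA occurred at 7.83%, against 15.3% at no promoter, and runs of 8 A at 10.1%, against 16.1%, both lower in 3 of 3 replicates. Each of these differences with 3 replicates in 1 direction had an exact sign-flip p of 0.25.

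The TCF site CTTTGAT was infrequent. It occurred at 2.20% of these summits, in 29 of 1316, against 1.96% at divergent, 2.99% at internal and 3.32% at no promoter. In the replicates the share was 1.85%, 2.31% and 1.92%, below the other 3 classes in 3 of 3 replicates (exact sign-flip p = 0.25 against each). At divergent promoters it was 2.65%, 3.49% and 1.97%, nearly equal in replicate 3. In the thresholded list the direction against divergent promoters was the other way. Mean GC of the windows was 44.5% at unidirectional first, 40.8% at divergent, 43.9% at internal and 40.1% at no promoter, and its part in the motif differences was not tested. Over the 17 motifs, 5 were higher than at divergent promoters in 3 of 3 replicates, 10 were lower and 2 had mixed directions. Against no promoter, 7 were higher, 5 lower and 5 mixed.

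Position about the summit set motif 1 apart from GAGA. Motif 1 had 22.8 matches per 1000 summits within 50 bp of the summit, against 6.08 per 1000 in the 2 flanks from 150 to 200 bp, both 100 bp of sequence in all. The DRE had 25.1 against 14.4, and the BEAF core CGATA, which lies within the DRE, had 263 against 179. GAGA ran the other way, with 131 within 50 bp against 179 in these flanks. Beyond them its contrast did not hold. The 25 bp bins from 200 to 250 bp had 32.7 and 25.1 GAGA matches per 1000 upstream and 16.7 and 21.3 downstream. The 2 bins at the summit had 31.2 and 30.4. Summits with motif 1 lay near the TSS, at a median of −6 bp with 89.8% within 100 bp, whereas summits with GAGA lay at a median of −75 bp with 42.4% within 100 bp. Both motif 1 and summits have preferred places relative to the TSS, and the part of the TSS in their closeness was not tested.

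**Figure D3:**
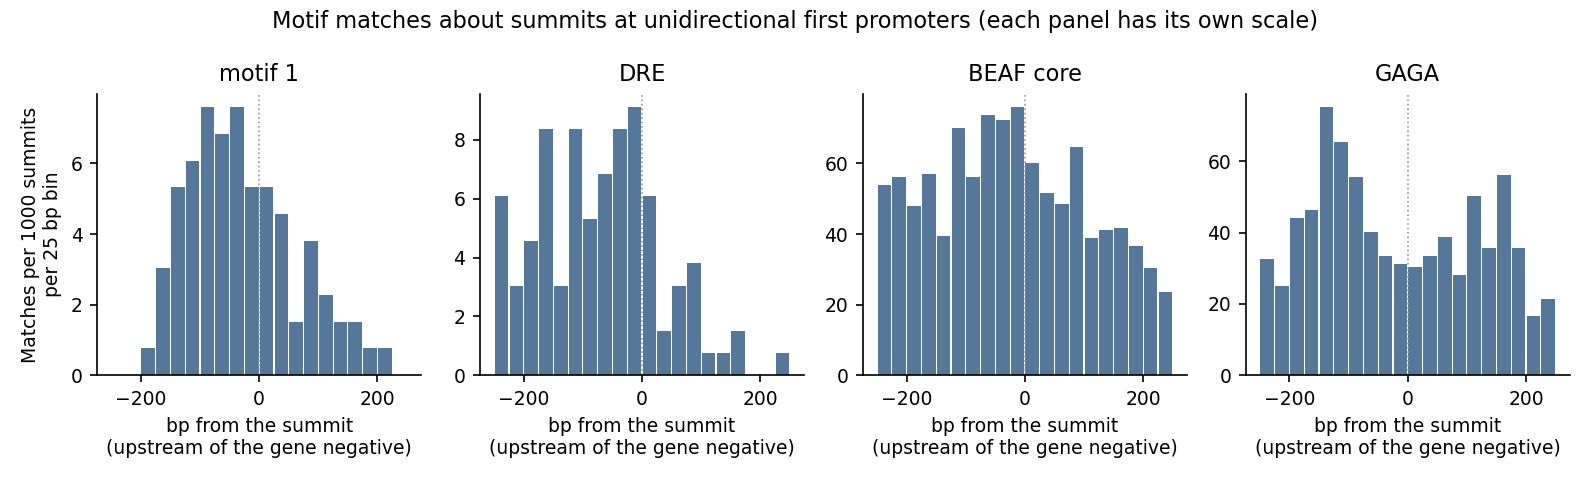
Matches per 1000 summits per 25 bp bin (y axis, own scale in each panel) against the position from the summit (x axis, bp, upstream of the gene negative) for motif 1, DRE, the BEAF core and GAGA. Motif 1 lay mostly within the central 200 bp. GAGA was lower at the summit than at 150 to 200 bp on both sides, but higher than at 200 to 250 bp downstream.

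Holding a motif was not accompanied by a much higher signal. Summits with the DRE had a median signal of 311 (n = 54), against 291 for those without. Summits with motif 1 had 279 (n = 49), against 292, and summits with GAGA had 300, against 290. The share found in all 3 replicates was 59.3% with the DRE, 44.9% with motif 1 and 57.1% with GAGA, beside 49.8% of all 1316 summits.

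The sites 1 base off motif 1 at Cks30A and Tasp1 were counted after these sequences had been seen. Motif 1 with at most 1 mismatch occurred within 100 bp of the summit at 5 of the 20 strongest summits, at 10 of the strongest 100 (10%) and at 147 of all 1316 (11.2%). Among the 100 strongest summits the share was 11%, 8% and 11% in replicates 1, 2 and 3, against 18.2%, 9.62% and 7.04% of the summits after the strongest 100. The near-match at the very strongest summits did not extend to the strongest 100.

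To ask which promoters of this kind held a summit, the 1238 genes with a summit were compared with the 7998 without. A gene without one may still have a summit within 500 bp that went to a nearer TSS of another gene. The sequence ran from 250 bp upstream to 50 bp downstream of the TSS in both. For genes with a summit this was the TSS nearest their strongest summit, and for the others the 5'-most such TSS. The choice makes no difference for genes with 1 TSS, which are compared separately below. Promoters with a summit were richer in GAGA, in the housekeeping motifs and in the TCT and DPE letters, and poorer in TATA. GAGA occurred at 26.2% of promoters holding a summit, against 13.04% of those without. In replicates 1, 2 and 3 it occurred at 22.5%, 24.3% and 28.1% of those holding one, against 13.2%, 13.3% and 12.9% of those without (mean difference 11.8 percentage points ± 3.07, SD, n = 3, exact sign-flip p = 0.25). The share was higher with a summit in all 4 lists.

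Motif 1 occurred at 6.79% of promoters holding a summit, against 3.04% of those without. The DRE occurred at 7.84% against 5.20%, motif 6 at 16.8% against 13.5%, motif 7 at 17.5% against 13.03% and the E-box at 19.5% against 14.95%. The TCT letters CTCTTTC occurred at 9.94% against 4.94%, the DPE letters CGGACGT at 4.04% against 1.5004% and the Helper site at 16.2% against 11.8%. Each of these 9 motifs was higher with a summit in 3 of 3 replicates (exact sign-flip p = 0.25 for each). Mean GC was 43.1% against 39.7%, and its part in these differences was not tested.

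The TATA letters TATAAA occurred at 36.1% of promoters holding a summit, against 45.1% of those without. In replicates 1, 2 and 3 they occurred at 35.8%, 36.4% and 35.1%, against 45.4%, 44.97% and 45.2% (mean difference −9.43 percentage points ± 0.78, SD, n = 3, exact sign-flip p = 0.25). The TCF site occurred at 3.15% against 5.35%, the Su(Hw) core at 12.8% against 15.9%, the ecdysone receptor site AGGTCA at 4.36% against 6.14% and runs of A at 14.9% against 16.3%. These 5 were lower with a summit in 3 of 3 replicates (exact sign-flip p = 0.25 for each). The Inr, the BEAF core and the Zelda site CAGGTA had mixed directions.

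TATA and Inr work at fixed places in a promoter, so they were also counted there, a choice made after the files had been read. TATA lying between 45 and 15 bp upstream occurred at 4.85% of promoters holding a summit, against 11.3% of those without, and at 4.02%, 3.997% and 5.42% against 11.7%, 11.3% and 11.2% in the replicates. Inr within 10 bp of the start site occurred at 21.2% against 14.2%, and at 19.5%, 20.1% and 21.8% against 14.3%, 14.4% and 14.2% in the replicates. The Inr letters anywhere in the window occurred at 54.6% against 54.3%. Both placed elements had the same direction in 3 of 3 replicates (exact sign-flip p = 0.25 for each).

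**Figure D4:**
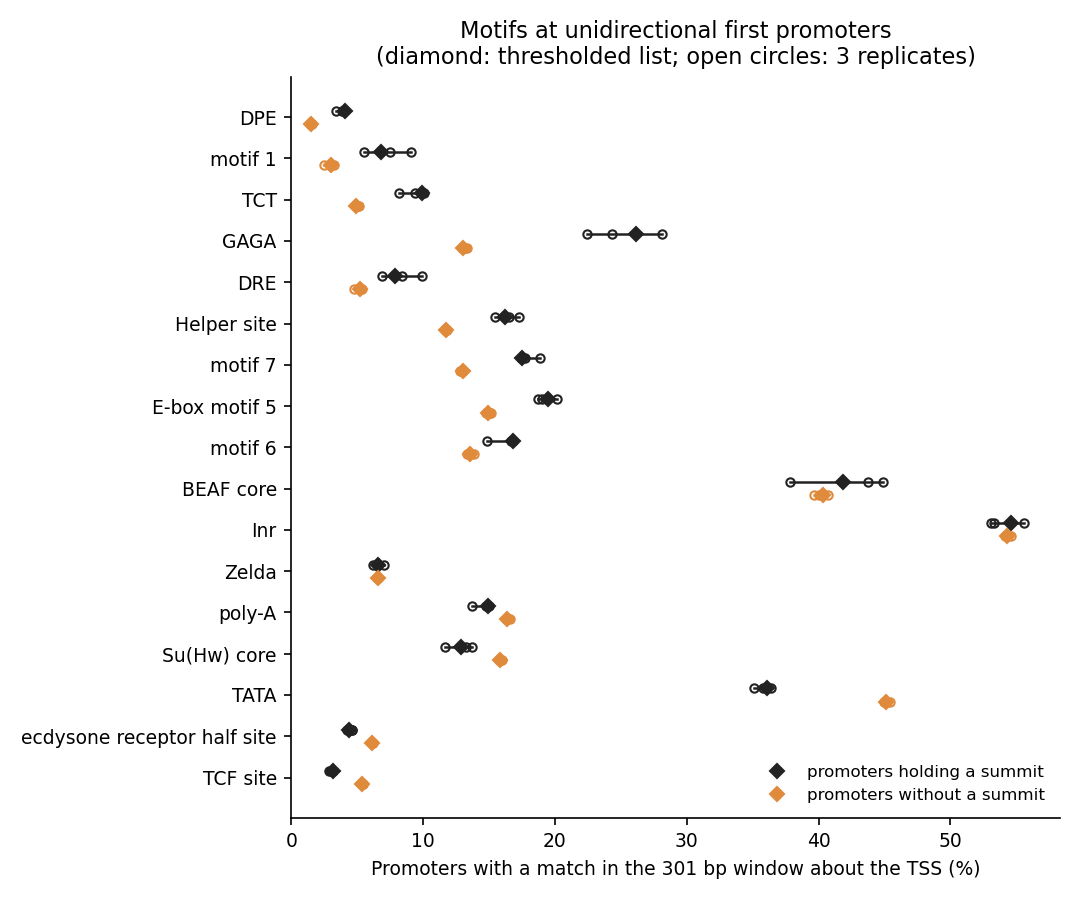
Percent of unidirectional first promoters with a match in the window about the TSS (x axis) for 17 motifs, with promoters holding a summit in black above promoters without one in orange. Diamonds show the thresholded list and open circles the 3 replicates; GAGA was at 22.5% to 28.1% with a summit, above 12.9% to 13.3% without, and TATA was the reverse.

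Genes that held a summit were longer and had more start sites. Their median length was 4797 bp, against 1934.5 bp for genes without one, and 45.4% had more than 1 TSS, against 23.3%. A gene with more starts has more places at which a summit counts, so the comparison was repeated among the 6814 genes with 1 TSS. There the median length was 3706.5 bp for the 676 genes holding a summit, against 1582 bp for the 6138 without, and in the replicates 3412, 3429.5 and 3636 bp against 1561, 1602 and 1595 bp. GAGA occurred at 25.9% against 11.6%, and placed TATA at 5.77% against 13.1%, among these genes.

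The upstream neighbour also differed. A TSS inside the body of another protein-coding gene was the case for 10.7% of genes holding a summit, against 21.9% of those without, and for 11.0%, 10.8% and 11.5% against 22.3%, 21.8% and 21.7% in the replicates. Summits went to the nearest TSS only, and the part of this rule in the difference was not tested. The nearest upstream gene pointed the same way for 61.8% against 54.2%. Among such tandem pairs the median gap to the upstream gene was 586 bp against 576 bp in the thresholded list, and its direction was mixed over the replicates. Each of the other differences in gene structure had the same direction in 3 of 3 replicates (exact sign-flip p = 0.25 for each).

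By chromosome arm, the share of these genes that held a summit ran from 12.6% on 2L to 14.2% on 2R among the 5 large arms. It was 6.45% on chromosome 4, with 4 of 62 genes. On Y, 0 of 23 genes with such a promoter held a summit in the thresholded list.

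Gene lists were described by how many of their genes with a unidirectional first promoter held a summit, beside 13.4% of all such genes. The cytosolic ribosomal protein genes had 22 of 41 (53.7%), and 25, 17 and 18 in replicates 1, 2 and 3. Their signals were moderate, from 174 to 715 with a median of 324. RpS4 had the highest at 715, 16 bp downstream of the TSS, followed by RpL23A (671, at −47 bp), RpL22 (497, at −78 bp) and RpL30 (490, at −9 bp). The summits lay on the start site, at a median of −0.5 bp, with 21 of 22 within 100 bp and 19 within 50 bp. A total of 12 of the 22 were found in all 3 replicates.

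Translation factors had 9 of 29 (31.0%), and 9, 7 and 5 in the replicates. They were led by eIF6 with 2097, eIF4A, the RNA helicase of cap recognition, with 706, and eEF1gamma with 635. The mitochondrial ribosomal proteins had 1 of 15, the same number in each replicate. The proteasome subunits had 1 of 26, and 3, 2 and 0 in the replicates, and the V-ATPase subunits had 2 of 19, and 3, 2 and 0. The respiratory chain with ATP synthase had 6 of 49 (12.2%), near the share of all genes. Of the respiratory genes, 10 held a summit in replicate 1, against 4 and 3 in replicates 2 and 3.

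The Wnt pathway, in which Coop is known to act, had 7 of 22 genes (31.8%), and 8, 8 and 6 in the replicates. Besides Coop these were gro, which encodes the corepressor Groucho and is counted in 3 of the lists (signal 1179, at −133 bp), the receptor gene fz3 (426, at −85 bp), wg, which encodes the ligand Wingless (299, at −165 bp), the glypican gene dally (197), the receptor gene fz (188) and nkd, an inhibitor of the pathway (182). Coop, gro, fz3 and wg were found in all 3 replicates, and dally, fz and nkd were not. Corepressors and histone deacetylases had 4 of 9, and 4, 3 and 5 in the replicates, with Gug, the Atrophin corepressor (1412, at −352 bp), and Sirt7 (471) beside gro and Coop. All 4 were found in all 3 replicates. Genes with a BESS or MADF domain, the family of Coop, had 3 of 5, the same number in each replicate, with brwl (1454) and BEAF-32 (496) beside Coop. Coop is thus counted in each of these 3 lists, although its signal cannot be told apart from that of the transgene.

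The Notch pathway with the E(spl) complex had 7 of 20 (35%), and 9, 8 and 8 in the replicates, led by gro and E(spl)m7-HLH (465). The Polycomb and Trithorax groups had 6 of 14 (42.9%), and 5, 5 and 4, led by the PRC1 genes ph-p (1339), ph-d (696) and Psc (502). ph-p and ph-d are near-identical neighbours, so reads may not be assigned to one of them with certainty. The list named ecdysone response genes had 8 of 23 (34.8%), and 10, 6 and 9 in the replicates. It was led by dre4 (3030), the ABC transporter gene E23 (1042), the cell death gene hid (809) and Eip93F (303). The list includes dre4, the FACT subunit gene, and whether dre4 responds to ecdysone was not tested. The heat shock proteins and chaperones had 7 of 20 (35%), and 8, 5 and 7, led by Hsp27 (2645), the co-chaperone gene stv (607) and Hsp26 (427). Counting only summits found in all 3 replicates, the numbers of genes were 3 for Notch, 2 for Polycomb and Trithorax, 5 for ecdysone response, 4 for heat shock, 4 for Wnt and 2 for translation factors, beside 49.8% of all 1316 summits found in all 3.

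The chemoreceptors, sensory receptor genes, had 0 of 155 in the thresholded list and 0, 0 and 1 in the replicates. Cuticle protein genes, which make the exoskeleton, had 2 of 111 (1.80%), and 3, 1 and 3, and cytochrome P450 genes had 4 of 72 (5.56%), and 5, 4 and 5. Odorant-binding proteins had 2 of 41 (4.88%), and 2, 2 and 3, the replication-dependent histones 0 of 27 and the salivary glue proteins 0 of 5. The histone genes are repeated copies, and reads from such copies may not be assigned to one. The lists of fewer than 15 genes give only coarse shares. These include the Polycomb and Trithorax groups (14), the corepressors and histone deacetylases (9) and the BESS or MADF genes (5) above. Of the others, Hox genes had 1 of 8, Mediator subunits 2 of 7 and DNA replication genes 3 of 12. Autophagy genes had 2 of 4 and insulator and promoter factors 2 of 11. Rab GTPases, a list of 16, had 2. TFIID subunits, aminoacyl-tRNA synthetases, nucleoporins and Sm or LSm proteins had 0 of 6, 0 of 10, 0 of 4 and 0 of 2 in the thresholded list, but 3, 2, 1 and 2 in replicate 1.

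**Figure D5:**
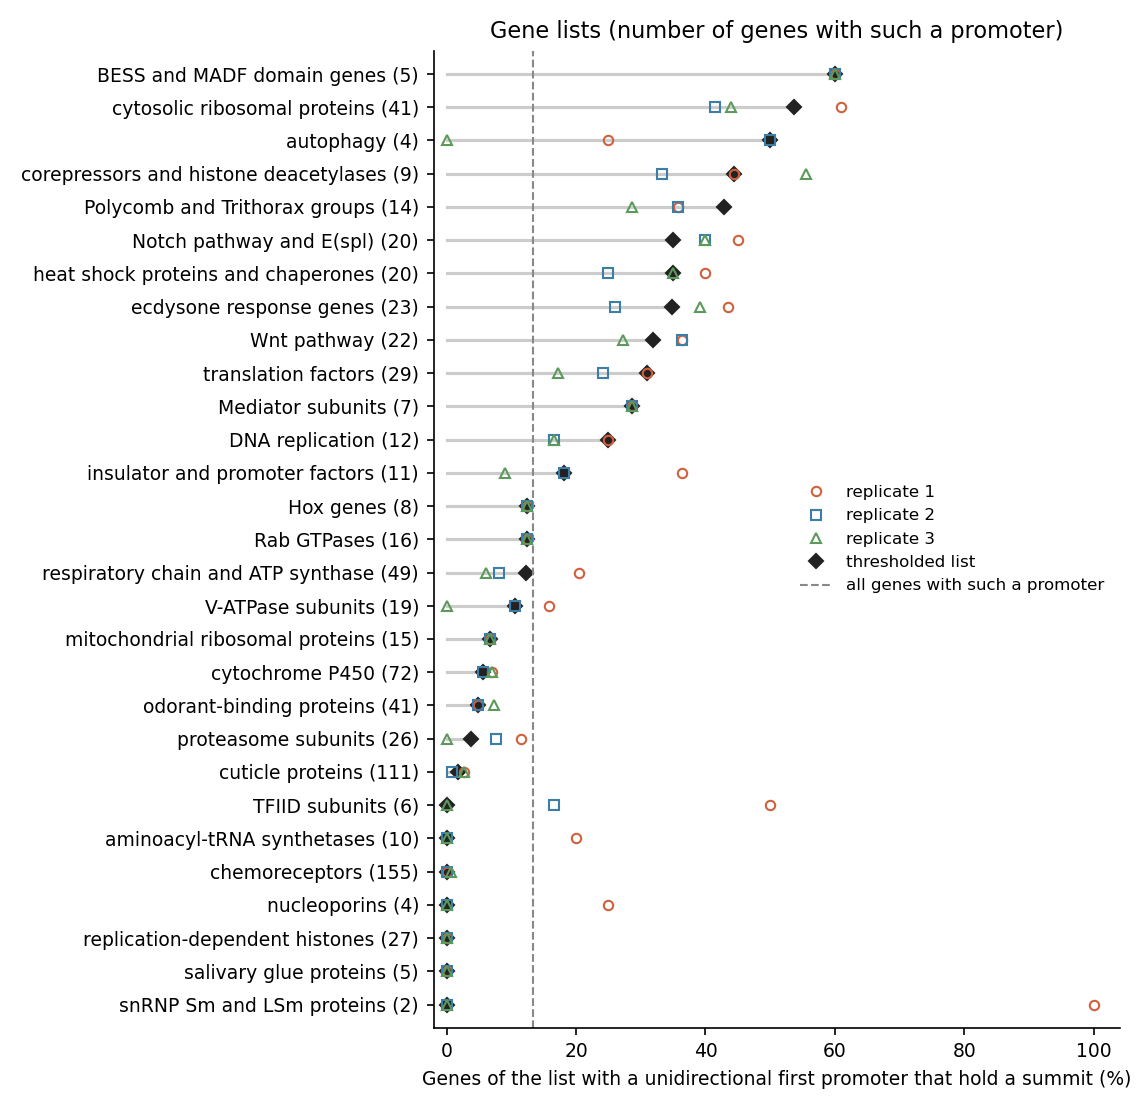
Percent of the genes of each list with a unidirectional first promoter that held a summit there (x axis), for 29 lists (y axis, number of such genes in brackets), with diamonds for the thresholded list and open symbols for each replicate. The dashed line is the 13.4% of all genes with such a promoter; the cytosolic ribosomal proteins lie at 41.5% to 61.0% in the replicates, and replicate 1 gives the highest share in several housekeeping lists.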

How the data were processed

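ChIP-seq of Coop-eGFP in 3 biological replicates of whole prepupae was analysed from 5 deposited peak lists on dm6. Per the deposited notes, the authors derived each replicate's list of 30000 relaxed regions from its alignment and a shared control alignment, and a pooled list likewise. The thresholded list of 6626 peaks passed an irreproducible discovery rate (IDR) step; the caller and the IDR threshold are not given in the sources used here. Signal means the peak score deposited by the authors, used only to rank peaks of 1 list. The −log10 q values deposited with the peaks are capped and were not used. Depth is unknown.

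Summits (counted from 1) were assigned to the nearest of 19630 protein-coding TSS of 13968 genes in Ensembl release 115 (BDGP 6.54). Sequence came from the RefSeq release 6 genome, and every interval lay within its arm. For each replicate, the 6626 regions of highest signal were kept. A total of 17 motifs were searched on both strands. Differences over replicates were tested with an exact two-sided sign-flip permutation test, whose smallest p is 0.25. Classification, motif search and the test were checked on simulated data. Python 3.11.15, numpy 2.4.6, pandas 2.3.3 and matplotlib 3.10.9 were used.

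The members, gene lists and motifs were chosen with earlier results of these data known, and the gene lists were corrected before their counts were made. Genes were named by rule: the 20 strongest, up to 4 per gene list by signal, the strongest with each motif, and those at each edge of the class definition. The genes with 3 summits and the weaker genes of the Wnt pathway lie outside it and were chosen after their values were seen. Results were recomputed with other distances, windows, list lengths and noncoding starts, and without each replicate.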

Additional observations from a re-analysis of the deposited data

How the results depend on the processing

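Of 581 alternative values of 60 tested differences, 576 kept their direction. Motif and promoter differences entered this count only where 3 of 3 replicates already shared a direction. Leaving out 1 replicate cannot reverse such a difference, so most of the 180 values from leaving out a replicate were fixed in advance. The 5 that reversed all concern the median signal percentile. Against divergent promoters it was −1.71 with the opposite TSS within 500 bp, −0.553 with summits within 250 bp of the TSS, −0.760 in the upper 50% of the list and ranged from −0.400 (without replicate 1) to 2.56 when each replicate was left out in turn, and against internal promoters it was −4.04 in the upper 50%; the cause was not tested. The share of summits at unidirectional first promoters was 16.8% with the opposite TSS within 2000 bp, 23.2% within 500 bp, 24.7% with summits within 1000 bp of the TSS and 16.5% within 250 bp. The mean over replicates was 17.1%, 24.0%, 25.1% and 16.8% under these settings, which by construction admit more or fewer summits. The share found in all replicates was 55.5% with summits matched within 200 bp, 36.2% within 50 bp, 79.0% in the upper 50%, and 58.2% to 62.8% when each replicate was left out in turn. Of 116 alternative counts for the 29 gene lists, 38 moved by more than 1.5 times or to or from 0. No paired analysis was possible because the study has 1 group, with no second group whose replicates could be matched to it; class differences were taken within each replicate. The depth of the libraries is unknown, so a promoter without a summit may lie below the limit of detection, and 3 replicates cannot take any p below 0.25.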
